A study of Mus musculus with 36 samples.

Results

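Mlkl and 8 further genes of the necroptosis pathway were followed through visceral white adipose tissue (visWAT, the epididymal fat pad) and liver of mice with and without an adipocyte deletion of Mlkl. The 9 genes were taken by symbol from the 56748 genes of the expression table, with no threshold on their values: Mlkl, Ripk1, Ripk3, Zbp1, Casp8, Fadd, Cflar, Tradd and Cyld. RNA-seq libraries were made from both tissues of the same 18 male mice, 36 libraries in all, with 1 library per mouse and tissue and no pooling. All mice were C57BL/6J and carried loxP-flanked Mlkl alleles. MlklAdi-KO mice also carried the Adipo-Cre transgene, which is active in mature adipocytes, so that the other cells of visWAT and the liver kept Mlkl, and their WT littermates lacked Cre. From 16 weeks of age the mice were fed a normal chow diet (NCD, 4 mice per genotype) or a high-fat diet (HFD, 5 mice per genotype) for 16 weeks. These are 8 groups of tissue, genotype and diet. WT NCD mice are 165, 180, 182 and 183, MlklAdi-KO NCD mice 166, 179, 197 and 199, WT HFD mice 154, 155, 161, 162 and 164, and MlklAdi-KO HFD mice 151, 152, 153, 156 and 157, and values are given in these orders throughout.

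Necroptosis is a form of regulated cell death in which the plasma membrane is torn open from within. Tumour necrosis factor receptors signal through the adaptors TRADD and FADD and the kinase RIPK1, and when caspase-8 is blocked RIPK1 binds the kinase RIPK3, which phosphorylates the pseudokinase MLKL, whose oligomers breach the membrane. ZBP1, a sensor of Z-form nucleic acids induced by interferon, can engage RIPK3 without RIPK1, while caspase-8 with its partner cFLIP (encoded by Cflar) holds the pathway back and the deubiquitinase CYLD strips ubiquitin chains from RIPK1. In obese visceral fat, dying adipocytes are surrounded by macrophages, which themselves express parts of this machinery.

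Expression was given by the authors as FPKM, reads normalised for gene length and for the size of the library, and every value corresponded to a whole number of reads. Libraries held 20875463 to 30322171 reads on genes. The library size behind the FPKM was 1.01- to 1.40-fold the reads on genes for visWAT but 0.737- to 0.812-fold for liver, and levels set between tissues depend on this scaling, and RNA was extracted with different reagents from fat and liver, which cannot be told apart from tissue. Adipocyte markers summed to 4834 FPKM or more in every visWAT library and to 156 or less in every liver library, and hepatocyte markers to 41718 or more in liver against 1975 or less in visWAT, as the tissue labels say. A pair of NCD-fed WT mice stood apart. The library labelled WT NCD mouse 182 had Mlkl in the MlklAdi-KO range in visWAT, and the predicted gene Gm11868, one of only 3 genes that passed the test between genotypes in HFD-fed visWAT, was at 1.55 FPKM in its visWAT and 1.04 in its liver, whereas the other WT NCD mice had at most 0.110 and 0.0818 and the MlklAdi-KO NCD mice 0.837 to 1.28 and 1.31 to 2.06. Zfp949, another of these 3 genes, was at 3.52 FPKM in visWAT of mouse 182, near mouse 183 at 3.38 and below the MlklAdi-KO NCD mice at 6.11 to 7.15, but at 4.98 in its liver, above the MlklAdi-KO NCD mice at 3.61 to 4.18 and the other WT NCD mice at 2.16 to 2.57. In visWAT of WT NCD mouse 183, 18.5% of the reads were on seminal vesicle genes. Both mice were kept in their labelled group, and some of the results that rest on that group are also given without them, an alternative chosen after the data were seen. Others, such as the correlations over visWAT libraries and the values of cell type markers, are given only with them.

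Mlkl (ENSMUSG00000012519) encodes the pseudokinase that carries out the last step, and spans positions 112038429 to 112064809 of chromosome 8 (GRCm39, minus strand). In HFD-fed visWAT, the WT mice had 4.58, 5.19, 4.88, 5.50 and 6.28 FPKM (5.29 ± 0.652, SD, n = 5). The MlklAdi-KO mice had 2.39, 2.68, 2.72, 2.55 and 2.32 FPKM (2.53 ± 0.172, SD, n = 5). Every MlklAdi-KO mouse was thus below every WT mouse, and the MlklAdi-KO values lay close together, at 44.0% to 51.4% of the WT mean. What remained averaged 47.9% of the WT level. The values count reads over the whole gene, and the exon between the loxP sites is not given in the sources used here. In bulk tissue, fewer cells of a type and less RNA per cell cannot be told apart, here or in any result that follows. On the log2(FPKM + 1) scale Mlkl was lower by a difference of −0.83 (SE 0.072, limma, p adjusted by Benjamini-Hochberg over all genes tested = 0.00162; two-sided exact permutation p = 0.00794, the smallest that 5 against 5 mice allow). It passed the threshold of 0.05 in all 16 alternative analyses, in which the difference ranged from −1.05 to −0.77 (adjusted p from 3.66e-18 to 0.0128).

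In NCD-fed visWAT, Mlkl was 5.11, 4.63, 2.29 and 3.91 FPKM in WT mice (3.99 ± 1.23, SD, n = 4) and 2.20, 1.96, 2.49 and 2.10 FPKM in MlklAdi-KO mice (2.19 ± 0.222, SD, n = 4). WT mice 165, 180 and 183 lay above all MlklAdi-KO mice, and the library labelled WT NCD mouse 182 lay between the MlklAdi-KO values, so that the groups overlapped. The difference was −0.61 (SE 0.18, limma, Benjamini-Hochberg adjusted p = 0.916; two-sided exact permutation p = 0.0571, with 4 against 4 mice allowing no p below 0.0286) and did not pass the threshold. Without the library labelled WT NCD mouse 182 it was −0.80 (adjusted p = 0.193) and without mice 182 and 183 −0.88 (adjusted p = 0.0777), both by limma with Benjamini-Hochberg adjustment, and no alternative called it (adjusted p from 0.0777 to 0.999). MlklAdi-KO mice averaged 48.0% of the WT mean of mice 165, 180 and 183, in place of 54.9% with all 4 WT mice. Whether the genotype difference changed with diet was tested with an interaction over the 18 visWAT libraries, and it was −0.22 for Mlkl (SE 0.19, limma, Benjamini-Hochberg adjusted p = 0.602), or −0.03 without mouse 182 and 0.06 without mice 182 and 183.

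Liver, outside the adipocytes that express the Cre, gave Mlkl values between 1.62 and 4.19 FPKM from 63 to 200 reads. HFD-fed WT mice had 2.67, 2.62, 2.71, 2.99 and 2.63 FPKM and HFD-fed MlklAdi-KO mice 2.07, 3.46, 1.81, 2.07 and 2.02 FPKM. Mouse 152 alone among these MlklAdi-KO mice was above the WT mice, and the others were below all of them. The mean was 83.9% of WT, with single MlklAdi-KO mice at 66.3% to 127% of the WT mean, and the difference of −0.20 did not pass (SE 0.11, limma, Benjamini-Hochberg adjusted p = 0.506). Without mouse 152 it was −0.32 (limma, Benjamini-Hochberg adjusted p = 0.0529), and with any other mouse left out −0.21 to −0.15. The liver of mouse 152 also had summed macrophage markers of 118 FPKM against 32.1 to 48.3 in the other HFD-fed MlklAdi-KO livers and summed Kupffer cell markers of 84.4 against 22.7 to 40.6, and their part in its Mlkl value was not tested. NCD-fed WT mice had 2.44, 2.18, 4.19 and 2.89 FPKM and NCD-fed MlklAdi-KO mice 2.39, 3.94, 2.23 and 1.62 FPKM, in groups that overlapped and whose highest values were those of mice 182 and 179. The difference was −0.16 (SE 0.21, limma, Benjamini-Hochberg adjusted p = 0.996), −0.02 without mouse 182 and 0.06 without mice 182 and 183. The library labelled WT NCD mouse 182 thus had the lowest Mlkl of its group in visWAT and the highest in liver.

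The tissues were then set against each other, as both came from the same mice. In all tests between tissues the main fit took the visWAT and liver libraries of a mouse as independent. The mouse as a block was an alternative. In HFD-fed mice the genotype difference in visWAT minus that in liver was −0.63 for Mlkl (SE 0.14, limma, Benjamini-Hochberg adjusted p = 0.0699), which did not pass. It was called on a scale with equal sums per library (TPM scale, adjusted p = 0.0441), by DESeq2 on the recovered reads (0.0119), without MlklAdi-KO HFD mouse 152 (0.0219) and without mouse 153 (0.0267), all after Benjamini-Hochberg adjustment. With the mouse as a block, limma gave an adjusted p of 0.135, and over 16 alternatives it ran from 0.0119 to 0.184. None of the 9 genes passed this test by limma, where 0.13% of all genes did, while edgeR called 0 and DESeq2 called 1. Over all 14620 genes tested, edgeR called 4 and DESeq2 336. At an unadjusted limma p under 0.05 were 4 of the 9 (Mlkl, Ripk1, Tradd and Cyld), where 18.2% of all genes were. In NCD-fed mice the same quantity was −0.45 for Mlkl (SE 0.30, limma, Benjamini-Hochberg adjusted p = 0.948), and −0.78 without mouse 182 (adjusted p = 0.924, in a range of 0.723 to 0.9999 over the alternatives). None of the 9 genes passed by limma, edgeR or DESeq2, where 0% of all genes passed by limma. At an unadjusted limma p under 0.05 was 1 of the 9 (Ripk1), where 4.25% of all genes were.

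Over the 8 groups the mean Mlkl level was highest in visWAT of HFD-fed WT mice (5.29 FPKM), followed by NCD-fed WT visWAT (3.99), the liver of NCD-fed WT (2.92), HFD-fed WT (2.72) and NCD-fed MlklAdi-KO mice (2.55), HFD-fed MlklAdi-KO visWAT (2.53), HFD-fed MlklAdi-KO liver (2.29) and NCD-fed MlklAdi-KO visWAT (2.19). The ranges of each pair of neighbours in this order overlapped. On this scale the mean of HFD-fed MlklAdi-KO visWAT lay among those of the liver groups and that of NCD-fed MlklAdi-KO visWAT below them. The means of WT visWAT lay above them. The exons of Mlkl share 672 of 5792 bases with Gm63800 on the opposite strand in GENCODE, and as the strand setting of the counting is not given, reads there cannot be assigned to one of them.

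**Figure D1:**
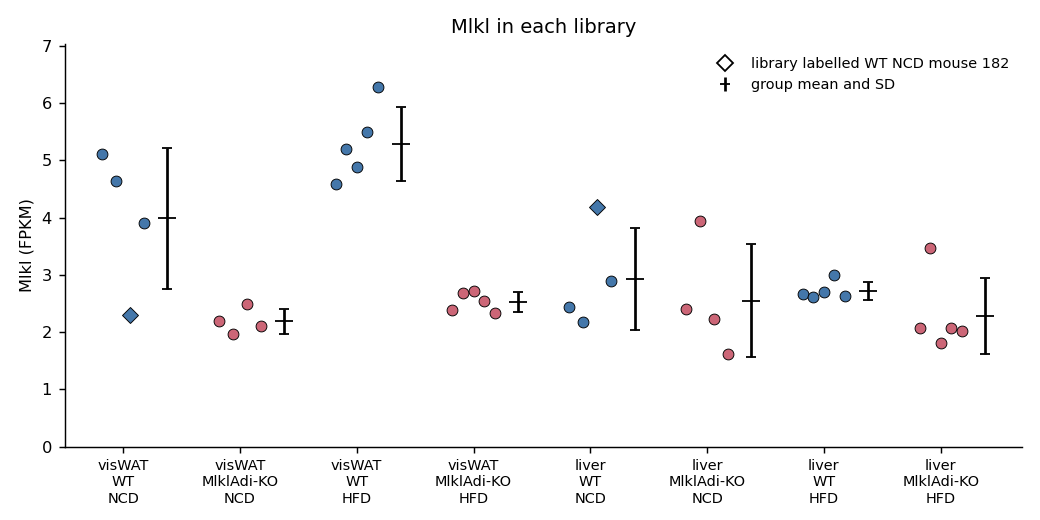
Mlkl in FPKM for each mouse (points) by tissue, diet and genotype, with the group mean and SD beside the points; the diamond is the library labelled WT NCD mouse 182. In HFD-fed visWAT the 5 MlklAdi-KO mice lie between 2.32 and 2.72 FPKM, below all 5 WT mice at 4.58 to 6.28, and in liver the genotypes overlap.

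The other 8 genes were compared between genotypes to see whether the pathway around Mlkl differed as well. In HFD-fed visWAT Mlkl was the only one of the 9 that passed the test, where 0.0215% of all genes did. The median difference of the 9 genes was −0.08, against 0.00 over all genes. Ripk3, the kinase directly upstream of MLKL, was 4.66, 5.63, 4.84, 4.89 and 4.46 FPKM in WT mice and 4.83, 5.81, 6.62, 4.01 and 3.41 FPKM in MlklAdi-KO mice. The MlklAdi-KO values reached further both ways and the means differed by −0.01 (SE 0.14, limma, Benjamini-Hochberg adjusted p = 0.954). Zbp1 was 1.20, 2.19, 2.0, 2.63 and 2.54 FPKM in WT mice and 1.34, 1.56, 1.27, 1.34 and 1.62 FPKM in MlklAdi-KO mice. WT mouse 154 lay below all MlklAdi-KO mice and the other 4 WT mice above them, a difference of −0.34 (SE 0.13, limma, Benjamini-Hochberg adjusted p = 0.221; two-sided exact permutation p = 0.0556). Ripk1 was 4.08, 4.21, 3.99, 4.23 and 4.46 FPKM in WT mice and 3.24, 3.96, 4.01, 3.58 and 3.55 FPKM in MlklAdi-KO mice. Only MlklAdi-KO mouse 153 reached into the WT range, and the difference of −0.16 did not pass (SE 0.055, limma, Benjamini-Hochberg adjusted p = 0.221; two-sided exact permutation p = 0.0159). Cflar differed by −0.12 (limma, Benjamini-Hochberg adjusted p = 0.222; two-sided exact permutation p = 0.0317). Casp8, Fadd, Tradd and Cyld differed by −0.08 to 0.04.

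In this comparison 0 of 10 macrophage markers passed by limma, edgeR or DESeq2. At an unadjusted limma p under 0.05 were 5 of the 10, where 21.5% of all genes were. The median difference of the 10 was −0.67, with values such as −0.99 for Adgre1 (limma, Benjamini-Hochberg adjusted p = 0.229). None of the 10 was at 0 in every library of a group. The summed macrophage markers were 1577 to 2217 FPKM in HFD-fed WT mice and 1261, 1920, 2033, 661 and 619 FPKM in HFD-fed MlklAdi-KO mice. Among the MlklAdi-KO mice, Ripk3 stood in the same order as this sum, from mouse 157 (3.41 FPKM) through mice 156, 151 and 152 to mouse 153 (6.62 FPKM). Mlkl in the same 5 mice and the same order was 2.32, 2.55, 2.39, 2.68 and 2.72 FPKM, over macrophage sums from 619 to 2033. It was thus lowest and highest in the same mice as the sum, within a narrow range. Adipocyte markers, of the cell type in which Mlkl was deleted, had a median difference of 0.43, with 0 of 8 called by limma, edgeR or DESeq2 and 5 at an unadjusted limma p under 0.05. They summed to 4834 to 5836 FPKM in HFD-fed WT mice and to 8488, 5716, 5360, 8713 and 9326 FPKM in HFD-fed MlklAdi-KO mice, highest in the 3 mice with the lowest macrophage sums. The 4 fibroblast and progenitor markers had a median of −0.41, with 0 called by limma, edgeR or DESeq2 and 2 at an unadjusted limma p under 0.05. The part of cell content in the values of Mlkl and the other genes was not tested.

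In NCD-fed visWAT 0 of the 9 genes passed by limma, edgeR or DESeq2, where 0% of all genes passed by limma. At an unadjusted limma p under 0.05 was 1 of the 9 (Mlkl), where 3.75% of all genes were. The differences of the other 8 ranged from −0.11 for Zbp1 to 0.10 for Casp8. The interaction of genotype with diet in visWAT passed for 0 of the 9 genes by limma, edgeR or DESeq2, where 0% of all genes passed by limma. At an unadjusted limma p under 0.05 was 1 of the 9 (Ripk1), where 13.2% of all genes were. For Ripk1 the interaction was −0.22 (SE 0.074, limma, Benjamini-Hochberg adjusted p = 0.326).

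In liver Ripk3 lay below the filter of a mean of 0.5 FPKM, and the other 8 genes were tested. On HFD 0 of the 8 passed by limma, edgeR or DESeq2, where 0.197% of all genes passed by limma. At an unadjusted limma p under 0.05 was 1 of the 8 (Fadd), where 12.6% of all genes were. Fadd, the adaptor that brings caspase-8 to death receptors, was 3.01, 3.40, 3.45, 3.08 and 3.47 FPKM in WT liver and 4.26, 3.71, 3.80, 4.14 and 3.59 FPKM in MlklAdi-KO liver. Every MlklAdi-KO mouse was above every WT mouse, yet the difference of 0.19 was not called (SE 0.057, limma, Benjamini-Hochberg adjusted p = 0.231; two-sided exact permutation p = 0.00794). On NCD 0 of the 8 passed by limma, edgeR or DESeq2, where 0.00758% of all genes passed by limma. At an unadjusted limma p under 0.05 was 1 of the 8 (Ripk1), where 4.35% of all genes were. Ripk1 was 4.37, 4.40, 4.77 and 4.61 FPKM in WT liver and 3.91, 3.33, 4.24 and 3.52 FPKM in MlklAdi-KO liver. These groups did not overlap either, with a difference of −0.22 (SE 0.077, limma, Benjamini-Hochberg adjusted p = 0.996; two-sided exact permutation p = 0.0286). The interaction of genotype with diet in liver passed for 0 of the 8 by limma, edgeR or DESeq2, where 0.0151% of all genes passed by limma. At an unadjusted limma p under 0.05 was 1 of the 8 (Ripk1), where 6.12% of all genes were. For Ripk1 the interaction was 0.25 (limma, Benjamini-Hochberg adjusted p = 0.58). About 239 and 339 of the 3914 exonic bases of Fadd overlap Faddos and Gm72893 on the opposite strand, so that its values may hold reads of these.

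**Figure D2:**
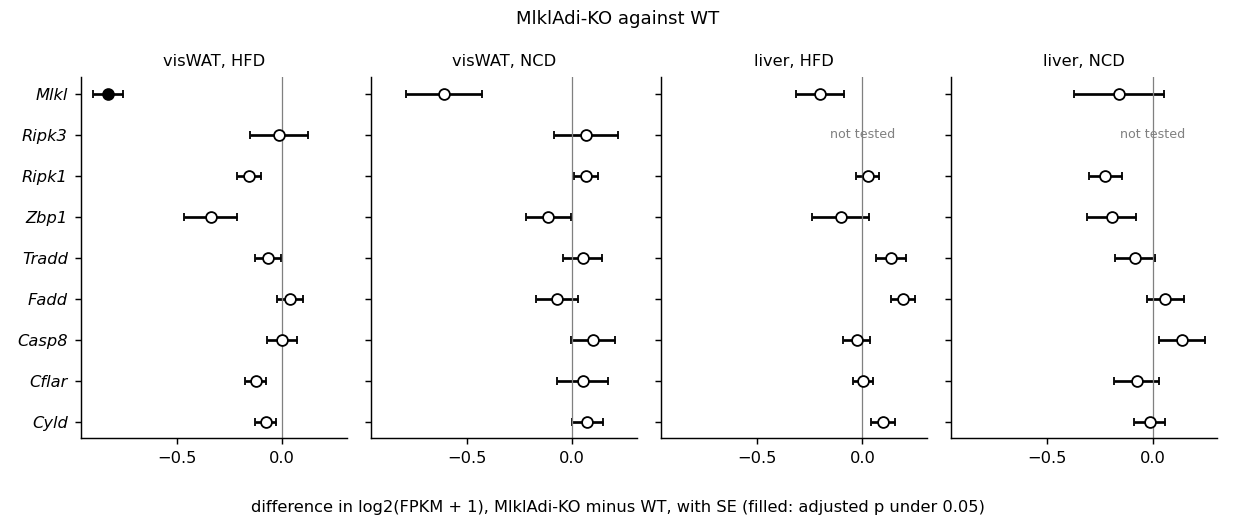
Differences in log2(FPKM + 1), MlklAdi-KO minus WT, for the 9 genes in each tissue and diet, with SE from limma; filled points have an adjusted p under 0.05. Mlkl in HFD-fed visWAT, at −0.83, is the only filled point, and Ripk3 was not tested in liver.

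Within visWAT, more of the 9 genes were called for diet than for genotype, as was so for all genes. In WT mice, 5 of the 9 genes rose with HFD and 0 fell, where 37.8% of all genes passed the test, 21.9% higher and 15.8% lower. The median difference of the 9 was 0.39, against −0.01 over all genes. In MlklAdi-KO mice 5 rose and 2 fell, where 43.7% of all genes passed, 23.3% higher and 20.3% lower, with a median of 0.17 against 0.01. Ripk3, Ripk1, Zbp1, Casp8 and Tradd were the 5 genes that rose in each genotype. The WT and MlklAdi-KO comparisons use different mice.

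Ripk3 (ENSMUSG00000022221, chromosome 14, 56022452 to 56026322, minus strand) showed the largest difference of the 9. It was 2.40, 2.23, 2.27 and 1.71 FPKM in visWAT of NCD-fed WT mice, below all of the HFD-fed WT mice at 4.46 to 5.63, and the mean was 2.27 times as high on HFD (difference 0.90, SE 0.085, limma, Benjamini-Hochberg adjusted p = 3.62e-05). In NCD-fed MlklAdi-KO mice it was 1.96, 1.59, 3.04 and 2.79 FPKM, again below all HFD-fed mice of that genotype at 3.41 to 6.62, and the mean rose 2.11 times (difference 0.82, SE 0.19, limma, Benjamini-Hochberg adjusted p = 0.00692). The 8 group means fell into 3 levels without overlap, visWAT on HFD (4.94 and 4.89 FPKM), visWAT on NCD (2.34 and 2.15 FPKM) and liver (0.327 to 0.480 FPKM).

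Ripk1 (ENSMUSG00000021408, chromosome 13, 34186346 to 34221130, plus strand), the kinase at the branch between survival and death, was 3.14, 3.02, 2.91 and 2.80 FPKM in NCD-fed WT visWAT. All 5 HFD-fed WT mice were above these, at 3.99 to 4.46, and the mean was 1.41 times as high (difference 0.39, SE 0.053, limma, Benjamini-Hochberg adjusted p = 0.000388). In MlklAdi-KO visWAT it went from 3.24, 3.06, 3.22 and 3.09 FPKM on NCD to 3.24 to 4.01 on HFD. Mouse 151 was level with the NCD-fed mice, and the mean rose 1.16 times (difference 0.17, SE 0.059, limma, Benjamini-Hochberg adjusted p = 0.0459). That call held in 4 of 15 alternatives, with an adjusted p of up to 0.151. In GENCODE the exons of Ripk1 share 511 of 10993 bases with Gm17084 on the same strand and 241 with Serpinb6a on the opposite strand.

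Zbp1 (ENSMUSG00000027514, chromosome 2, 173048405 to 173060716, minus strand), the nucleic acid sensor, was 0.980, 0.974, 1.10 and 1.29 FPKM in NCD-fed WT visWAT. On HFD 4 of the 5 WT mice were above all of these, at 2.0 to 2.63, while mouse 154 was at 1.20, and the mean was 1.95 times as high (difference 0.56, SE 0.14, limma, Benjamini-Hochberg adjusted p = 0.0127). In MlklAdi-KO visWAT it went from 0.752, 0.931, 0.774 and 1.28 FPKM on NCD to 1.27 to 1.62 on HFD, 1.53 times on average (difference 0.33, SE 0.091, limma, Benjamini-Hochberg adjusted p = 0.0157). Of 8 interferon-stimulated genes fixed as a list, 1 rose in WT visWAT on HFD, where 21.9% of all genes rose. In MlklAdi-KO visWAT 3 rose and 1 fell, where 23.3% of all genes rose and 20.3% fell.

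Casp8 (ENSMUSG00000026029, chromosome 1, 58834533 to 58886662, plus strand), the protease that cleaves RIPK1 and RIPK3, had the highest mean of the 9 genes in each visWAT group on the FPKM scale, which is per length. NCD-fed WT mice had 12.6, 11.4, 11.1 and 9.04 FPKM and HFD-fed WT mice 14.6, 15.9, 17.0, 15.6 and 15.6 FPKM, without overlap and 1.43 times as high on average (difference 0.48, SE 0.092, limma, Benjamini-Hochberg adjusted p = 0.00285). In MlklAdi-KO mice it was 11.7, 10.7, 12.1 and 12.8 FPKM on NCD and 17.0, 16.3, 16.4, 15.7 and 13.3 FPKM on HFD, again without overlap (1.33 times, difference 0.38, SE 0.080, limma, Benjamini-Hochberg adjusted p = 0.00482). Tradd (ENSMUSG00000031887, chromosome 8, 105984918 to 105991241, minus strand), the adaptor of TNF receptor 1, was 5.65, 5.92, 5.74 and 7.38 FPKM in NCD-fed WT visWAT and 8.57, 10.2, 9.65, 8.86 and 8.69 on HFD. The diets did not overlap in WT mice (1.49 times, difference 0.51, SE 0.087, limma, Benjamini-Hochberg adjusted p = 0.0015). In MlklAdi-KO visWAT it was 5.80 to 6.88 FPKM on NCD and 8.14 to 9.62 on HFD (1.37 times, difference 0.40, limma, Benjamini-Hochberg adjusted p = 0.00135). In WT visWAT the calls of Ripk3, Ripk1, Zbp1, Casp8 and Tradd held in all 16 alternatives, those without mice 182 and 183 among them.

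Mlkl itself was not among the genes called for diet in visWAT. Its mean was 1.33 times as high on HFD in WT mice (difference 0.37, SE 0.17, limma, Benjamini-Hochberg adjusted p = 0.12), and the difference was 0.18 without the NCD-fed library labelled WT mouse 182 and 0.09 without mice 182 and 183. It was called on the TPM scale (0.79, adjusted p = 0.0462) and with all 4 visWAT groups in 1 fit (0.37, adjusted p = 0.0343), both by limma with Benjamini-Hochberg adjustment, and over its 16 alternatives the adjusted p ran from 0.0343 to 0.478. In MlklAdi-KO visWAT the difference was 0.15 (SE 0.063, limma, Benjamini-Hochberg adjusted p = 0.0819; two-sided exact permutation p = 0.0476). The diet differences of Ripk3 and Mlkl, adjacent steps of the pathway, thus stood at 0.90 and 0.37 in WT and at 0.82 and 0.15 in MlklAdi-KO visWAT, and the gap between the genes was not tested.

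Cflar (ENSMUSG00000026031, chromosome 1, 58750667 to 58798043, plus strand), whose product cFLIP restrains caspase-8 at death receptors, fell in MlklAdi-KO visWAT. There it was 6.15, 6.34, 6.99 and 6.29 FPKM on NCD and 4.88, 5.06, 5.0, 4.74 and 4.98 on HFD, without overlap, at 0.765 of the NCD mean (difference −0.33, SE 0.048, limma, Benjamini-Hochberg adjusted p = 0.00104). In WT visWAT the values were 7.48, 6.19, 6.67 and 4.70 FPKM on NCD and 4.94 to 6.04 on HFD, and with mouse 183 lowest of all the difference of −0.15 did not pass (SE 0.11, limma, Benjamini-Hochberg adjusted p = 0.302). Without mice 182 and 183 it was −0.27 (limma, Benjamini-Hochberg adjusted p = 0.0323), and over 16 alternatives the adjusted p ran from 0.0234 to 0.621. Cyld (ENSMUSG00000036712, chromosome 8, 89423656 to 89478573, plus strand), the deubiquitinase of RIPK1, fell in MlklAdi-KO visWAT from 2.25 to 2.59 FPKM on NCD to 1.94 to 2.22 on HFD (0.841 of the mean, difference −0.17, limma, Benjamini-Hochberg adjusted p = 0.0246), a call that held in 10 of 15 alternatives. In WT visWAT its difference was −0.02 and that of Fadd −0.03.

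Cell type markers moved strongly with diet in the same libraries. Of all genes, 21.9% rose and 15.8% fell in WT visWAT, and 23.3% rose and 20.3% fell in MlklAdi-KO visWAT. All 10 macrophage markers rose in WT visWAT, with a median difference of 2.57, and 8 of 10 rose in MlklAdi-KO visWAT, with a median of 1.54. Their sum went from 181 to 276 FPKM on NCD to 1577 to 2217 on HFD in WT mice, and from 240 to 414 to 619 to 2033 in MlklAdi-KO mice. Of 8 adipocyte markers, 1 rose and 4 fell in WT visWAT, with sums of 4914 to 7880 FPKM on NCD and 4834 to 5836 on HFD, and all 4 fibroblast and progenitor markers rose there. The part of these cells in the diet differences of the 9 genes was not tested. The scaling mattered as well. On the TPM scale the median of all genes in WT visWAT moved by 0.36 and that of the 9 genes stood at 0.80, in place of 0.39. In MlklAdi-KO visWAT the median of all genes moved by −0.01. Before this scaling, visWAT of WT NCD mouse 183 summed to 564718 FPKM over all genes, and every other visWAT library to 309820 or less. The part of that library in the shift was not tested.

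**Figure D3:**
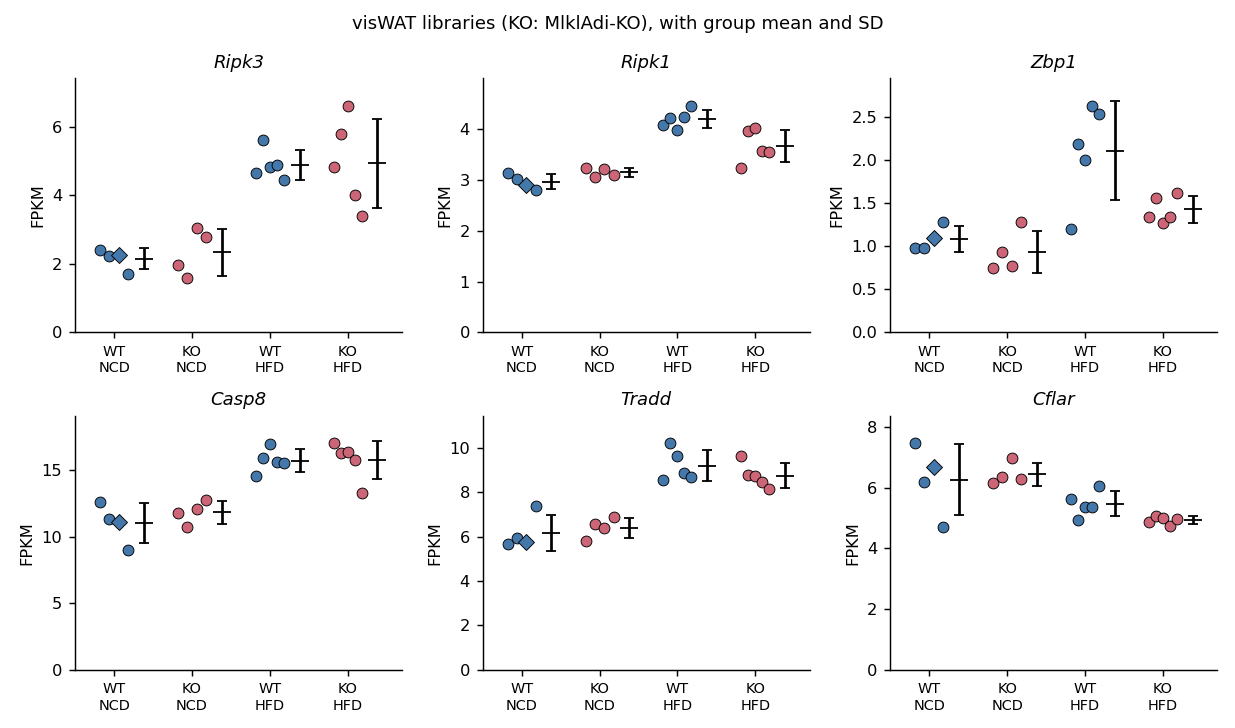
FPKM of Ripk3, Ripk1, Zbp1, Casp8, Tradd and Cflar in each visWAT library (points), with group mean and SD; KO stands for MlklAdi-KO and the diamond for the library labelled WT NCD mouse 182. Ripk3 lies at 1.59 to 3.04 FPKM on NCD and at 3.41 to 6.62 on HFD, and in MlklAdi-KO mice Cflar is lower on HFD.

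**Figure D4:**
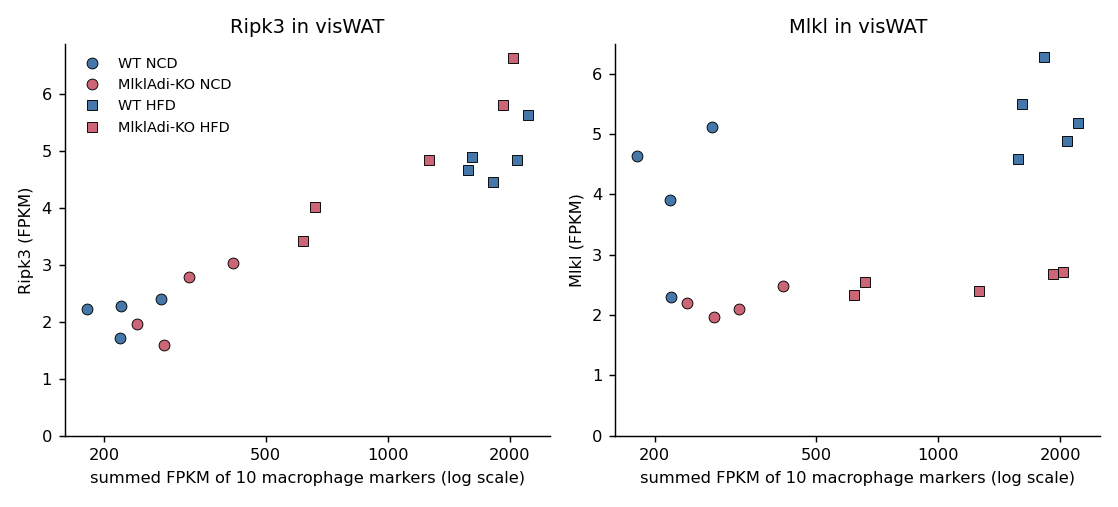
Ripk3 and Mlkl in FPKM (vertical axes) against the summed FPKM of 10 macrophage markers (horizontal log axes) in the 18 visWAT libraries. The HFD-fed MlklAdi-KO mice span sums of 619 to 2033, over which Ripk3 goes from 3.41 to 6.62 FPKM and Mlkl from 2.32 to 2.72.

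Promoter sequence was read for the genes that carried the genotype or diet differences. RefSeq promoter entries (GRCm39) matched 7 of the 9 genes, all but Zbp1 and Tradd, and are given from 250 bases before to 30 bases from the start on, 5′ to 3′ on the gene's strand. Capitals mark an ISRE-like match (GAAA, any 2 bases, GAAA, on either strand) or a GAS-like match (TTCNNNGAA, which reads the same on both strands), the letter patterns bound by interferon-activated factors. Over all 32851 promoter entries, 3.278% held the first and 7.832% the second. Mlkl is shown as the deleted gene (chr8:112064808-112065087, minus strand), Ripk3 (chr14:56026285-56026564, minus strand), Ripk1 (chr13:34186607-34186886, plus strand, its second entry) and Casp8 (chr1:58841411-58841690, plus strand) as genes that rose on HFD in visWAT, and Cflar (chr1:58750400-58750679, plus strand) as one that fell.
Mlkl: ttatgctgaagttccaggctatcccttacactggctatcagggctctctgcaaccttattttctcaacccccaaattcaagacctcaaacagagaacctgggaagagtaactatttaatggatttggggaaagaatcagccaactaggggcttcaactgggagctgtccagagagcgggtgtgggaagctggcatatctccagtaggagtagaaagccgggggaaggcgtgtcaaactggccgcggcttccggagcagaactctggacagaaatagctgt
Ripk3: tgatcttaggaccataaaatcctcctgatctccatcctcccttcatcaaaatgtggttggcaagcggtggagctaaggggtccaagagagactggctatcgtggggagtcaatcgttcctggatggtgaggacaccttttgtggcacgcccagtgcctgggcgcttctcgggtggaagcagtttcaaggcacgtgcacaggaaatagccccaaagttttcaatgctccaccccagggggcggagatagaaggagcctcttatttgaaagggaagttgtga
Ripk1: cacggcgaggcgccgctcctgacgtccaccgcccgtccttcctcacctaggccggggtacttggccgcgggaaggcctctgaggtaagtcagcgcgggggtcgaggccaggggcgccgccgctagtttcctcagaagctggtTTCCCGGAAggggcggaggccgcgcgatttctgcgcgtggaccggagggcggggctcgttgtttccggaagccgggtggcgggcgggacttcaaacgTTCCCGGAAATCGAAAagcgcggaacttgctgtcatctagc
Casp8: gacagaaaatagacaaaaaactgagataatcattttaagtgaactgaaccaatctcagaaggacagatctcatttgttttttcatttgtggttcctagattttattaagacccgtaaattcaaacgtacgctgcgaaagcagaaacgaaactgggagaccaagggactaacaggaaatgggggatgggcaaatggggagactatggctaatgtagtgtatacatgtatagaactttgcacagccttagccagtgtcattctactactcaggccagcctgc
Cflar: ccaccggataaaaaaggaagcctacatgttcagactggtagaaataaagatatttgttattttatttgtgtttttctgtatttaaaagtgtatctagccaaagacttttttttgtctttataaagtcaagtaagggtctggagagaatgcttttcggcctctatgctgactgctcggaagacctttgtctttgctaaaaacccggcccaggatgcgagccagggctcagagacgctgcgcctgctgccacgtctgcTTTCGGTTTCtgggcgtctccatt

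The second Ripk1 entry held 2 GAS-like matches, from −108 to −100 and from −11 to −3, and 1 ISRE-like match from −5 to 5, counted from the start, and the last 2 overlap in a single run of capitals. Cflar held 1 ISRE-like match from 7 to 16, on the opposite strand, whereas its RNA was lower on HFD. Mlkl, Ripk3, Casp8, Fadd, Cyld and the first Ripk1 entry held none of these letters in this window. The matches are descriptions of sequence, and no binding was measured.

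In liver, Fadd rose and Cflar fell with HFD in each genotype, Casp8 rose in WT mice, and Ripk1 and Cyld rose in MlklAdi-KO mice. In WT mice 2 of the 8 genes tested rose and 1 fell, where 25.3% of all genes passed, 13.2% higher and 12.1% lower, with a median of 0.10 against 0.00 over all genes. In MlklAdi-KO mice 3 rose and 1 fell, where 22.2% passed, 11.9% higher and 10.3% lower, with a median of 0.23 against 0.00. Fadd (ENSMUSG00000031077, chromosome 7, 144131055 to 144136200, minus strand) rose in each genotype. It was 2.82, 2.49, 2.02 and 2.62 FPKM in NCD-fed WT liver, below all HFD-fed WT mice at 3.01 to 3.47 (1.32 times, difference 0.30, SE 0.077, limma, Benjamini-Hochberg adjusted p = 0.0188). In MlklAdi-KO liver it was 2.80, 2.66, 2.50 and 2.53 FPKM on NCD, below the HFD-fed mice at 3.59 to 4.26 (1.49 times, difference 0.43, SE 0.064, limma, Benjamini-Hochberg adjusted p = 0.00159). The WT call was lost without mice 182 and 183 (0.23, limma, Benjamini-Hochberg adjusted p = 0.0704, the highest of 16 alternatives) and held in the other 15.

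Cflar, higher in every liver library than in any visWAT library on the FPKM scale, fell in liver of each genotype. In WT mice it went from 12.9, 15.3, 12.3 and 14.2 FPKM on NCD to 10.4, 9.78, 11.0, 10.3 and 9.83 on HFD, without overlap (0.751 of the mean, difference −0.38, SE 0.067, limma, Benjamini-Hochberg adjusted p = 0.00362). In MlklAdi-KO mice it went from 12.6, 13.5, 14.9 and 10.7 FPKM to 9.84, 10.1, 9.88, 10.5 and 11.2, with mouse 199 on NCD inside the HFD range (0.794 of the mean, difference −0.30, SE 0.087, limma, Benjamini-Hochberg adjusted p = 0.0356), and this call held in 7 of 15 alternatives. Casp8 rose in WT liver from 9.44 to 12.8 FPKM on NCD to 14.2 to 16.9 on HFD (1.33 times, difference 0.39, SE 0.089, limma, Benjamini-Hochberg adjusted p = 0.0118), and in MlklAdi-KO liver its difference was 0.22 (limma, Benjamini-Hochberg adjusted p = 0.0842). Ripk1 rose in MlklAdi-KO liver, from 3.33 to 4.24 FPKM to 4.68 to 5.26 (1.31 times, difference 0.32, SE 0.070, limma, Benjamini-Hochberg adjusted p = 0.0107), and was at 0.07 in WT liver. Cyld rose in MlklAdi-KO liver, from 2.13 to 2.53 FPKM to 2.75 to 3.27 (difference 0.24, limma, Benjamini-Hochberg adjusted p = 0.0319), a call that held in 10 of 15 alternatives. Mlkl differed by −0.05 between diets in WT liver and by −0.09 in MlklAdi-KO liver (limma, Benjamini-Hochberg adjusted p = 0.812 and 0.765).

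Ripk3 was close to the limit of measurement in liver. It was 0.167 to 0.977 FPKM there, from 7 to 43 reads per library, and its highest value was that of HFD-fed MlklAdi-KO mouse 152, which also had the highest Mlkl of that group. Of the macrophage markers above the filter in liver, limma, edgeR and DESeq2 called 0 of 8 between diets in WT and 0 of 6 in MlklAdi-KO mice. At an unadjusted limma p under 0.05 were 1 and 0, where 37.5% and 35.6% of all genes were. The sum of all 10 macrophage markers was 32.1 to 125.5 FPKM over all liver libraries.

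**Figure D5:**
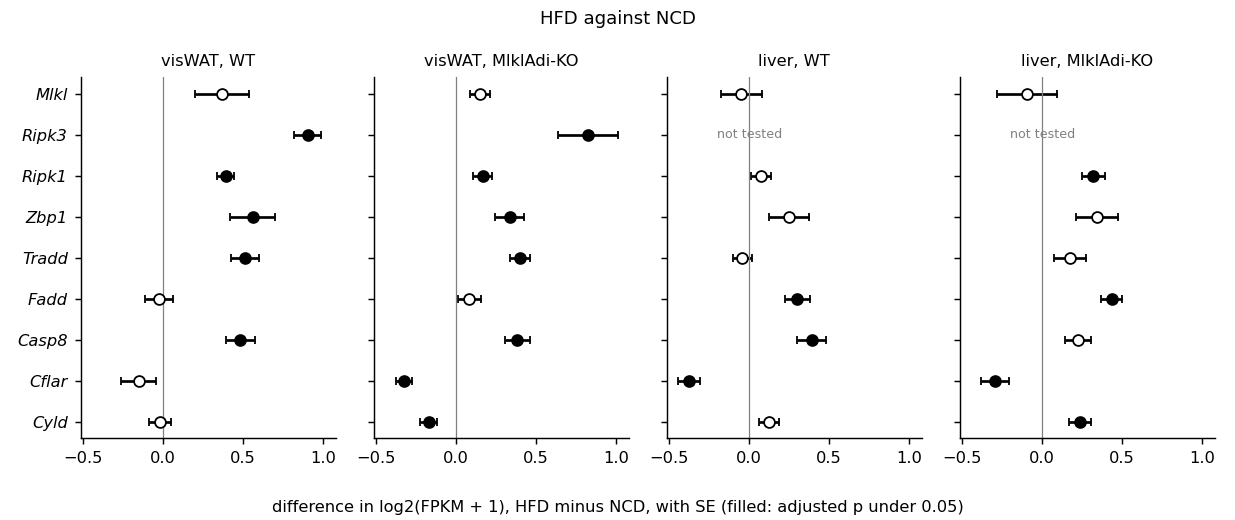
Differences in log2(FPKM + 1), HFD minus NCD, for the 9 genes in visWAT and liver of each genotype, with SE from limma; filled points have an adjusted p under 0.05. Ripk3 has the largest differences, 0.90 in WT and 0.82 in MlklAdi-KO visWAT, and Cflar is below 0 in all 4 panels, as an open point in WT visWAT.

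In WT mice the tissues were compared directly. On NCD, visWAT was higher than liver for 1 of the 9 genes and lower for 3, where 65.5% of all genes passed, 31.5% higher and 34% lower. On HFD it was higher for 3 and lower for 3, where 84.6% passed, 41.6% higher and 43% lower. Ripk3 was higher in visWAT on either diet, 4.49 times on NCD (difference 1.10, SE 0.13, adjusted p = 0.000107) and 15.0 times on HFD, against 7 to 22 reads per liver library (difference 2.16, SE 0.083, adjusted p = 3.39e-10), both by limma with Benjamini-Hochberg adjustment. Mlkl was higher in visWAT on HFD, where WT visWAT had 4.58 to 6.28 FPKM and WT liver 2.62 to 2.99 (1.94 times, difference 0.75, SE 0.069, limma, Benjamini-Hochberg adjusted p = 8.67e-07). On NCD its difference was 0.33 (adjusted p = 0.215), or 0.66 without mouse 182 (adjusted p = 0.00265, in a range of 0.00148 to 0.615 over the alternatives), both by limma with Benjamini-Hochberg adjustment. These directions of Ripk3, and of Mlkl on HFD, held in all 11 alternatives. In liver alone Ripk3 was below the filter, at 10 to 30 reads per WT library on NCD, so the sizes of its differences rest on few liver reads.

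Cflar was lower in visWAT than in liver on NCD (−1.02, adjusted p = 0.000179) and on HFD (−0.80, adjusted p = 3.9e-08), as was Ripk1 (−0.48, adjusted p = 0.000279, and −0.16, adjusted p = 0.0134), by limma with Benjamini-Hochberg adjustment. Tradd was lower in visWAT on NCD (−0.40, adjusted p = 0.00702) and higher on HFD (0.15, adjusted p = 0.0204), and Cyld was lower on HFD (−0.21, adjusted p = 0.0052), likewise by limma with Benjamini-Hochberg adjustment. With 1 mouse left out, Tradd lost its call on NCD without mice 165 or 180 (adjusted p = 0.054 and 0.0604) and on HFD without mice 155 or 161 (adjusted p = 0.053 and 0.0959), and Ripk1 on HFD without mice 154 or 161 (adjusted p = 0.0525 and 0.0749), by limma with Benjamini-Hochberg adjustment. These differences depended on the scaling, in size for all and in sign for all but Tradd on HFD and Cflar on NCD. The TPM scale moved the median of all genes by 0.50 on NCD and 0.84 on HFD, and took Cflar to −0.42 (adjusted p = 0.274, limma with Benjamini-Hochberg adjustment), Ripk1 to 0.05 and Tradd to 0.17 on NCD and Ripk1 to 0.75, Cflar to 0.17, Cyld to 0.60 and Tradd to 1.15 on HFD. Of the 9 genes limma then called 3 higher and 0 lower in visWAT on NCD and 9 higher and 0 lower on HFD. Over all genes it then called 5870 higher and 2046 lower on NCD, and 11215 higher and 2738 lower on HFD. With the mouse as a block the numbers of genes called on each diet did not move.

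Whether diet acted differently on the tissues was tested as an interaction in WT mice, the HFD difference in visWAT minus that in liver. It passed for 4 of the 9 genes, 3 positive and 1 negative, where 40% of all genes passed, 21.8% positive and 18.2% negative. It was 1.06 for Ripk3 (SE 0.15, adjusted p = 3.31e-05), 0.55 for Tradd (SE 0.11, adjusted p = 0.000535) and 0.32 for Ripk1 (SE 0.077, adjusted p = 0.00358), by limma with Benjamini-Hochberg adjustment. The HFD differences of Tradd and Ripk1 were larger in visWAT than in liver, where they were −0.04 and 0.07. In WT liver alone Ripk3 was below the filter of 0.5 FPKM, at means of 0.480 on NCD and 0.327 on HFD. It passed the filter here through its visWAT values, and its diet difference within WT liver was not tested with this filter. Without mice 182 and 183 the adjusted p of Ripk1 was 0.0526, the highest of its 16 alternatives. Fadd had the opposite sign, at −0.33 (SE 0.12, limma, Benjamini-Hochberg adjusted p = 0.033), with −0.03 in visWAT and 0.30 in liver. This call was lost with the mouse as a block (adjusted p = 0.0913), without mouse 182 (−0.19, adjusted p = 0.116) and on the TPM scale (0.04), and held in 7 of 16 alternatives.

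The rest of the pathway was described through 4 lists written from general knowledge. Between genotypes, limma and edgeR called 0 of their genes in either tissue on either diet. At an unadjusted limma p under 0.05 were 12 of 57 genes tested in HFD-fed visWAT, 2 of 56 in NCD-fed visWAT, 8 of 54 in HFD-fed liver and 2 of 54 in NCD-fed liver, that is 21.1%, 3.57%, 14.8% and 3.7%, where the shares over all genes were 21.5%, 3.75%, 12.6% and 4.35%. DESeq2 called 2 in HFD-fed visWAT, Tnfaip3 and Peli1, 3 in HFD-fed liver, Traf5, Ikbkg and Irf9, and 0 on NCD. These 5 genes were named after their values were seen. Over all genes DESeq2 called 161 of 13963 in HFD-fed visWAT and 262 of 13215 in HFD-fed liver. On NCD it called 8 of 14063 in visWAT and 21 of 13193 in liver. The diet comparisons follow. Among 22 genes of the TNF receptor complex, 8 rose and 2 fell with HFD in WT visWAT, with a median difference of 0.17 against −0.01 over all genes, of which 21.9% rose and 15.8% fell. Tnf, the ligand, rose by 0.77 (adjusted p = 0.000124), Ikbke, a kinase of the complex, by 0.99 (adjusted p = 0.000112) and Traf5, a signalling adaptor, by 0.67 (adjusted p = 0.000735), by limma with Benjamini-Hochberg adjustment. Tab3, a subunit of the TAK1 kinase complex, was at −0.57 and Chuk, an IκB kinase, at −0.40 (limma, Benjamini-Hochberg adjusted p = 0.00209 and 0.00208), and on the TPM scale neither passed, Tab3 being at −0.27 (limma, Benjamini-Hochberg adjusted p = 0.368) and Chuk at 0.01. In MlklAdi-KO visWAT 7 rose and 6 fell, with a median of 0.04, where 23.3% of all genes rose and 20.3% fell. Tnf (0.82), Ikbke (0.64) and Traf5 (0.59) rose again, and Tnfaip3, which encodes the ubiquitin editor A20, fell with Tab3 and Chuk (−0.43, limma, Benjamini-Hochberg adjusted p = 0.00715). The call of Ikbke there held in 8 of 15 alternatives and was lost without the filter and with any of mice 166, 179, 197, 199, 151 or 152 left out (adjusted p up to 0.0735, limma with Benjamini-Hochberg adjustment).

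Among 13 genes of other triggers, 4 rose and 0 fell in WT visWAT and 3 rose and 0 fell in MlklAdi-KO visWAT (medians 0.14 and 0.13). Of all genes, 21.9% rose and 15.8% fell in WT visWAT, and 23.3% rose and 20.3% fell in MlklAdi-KO visWAT. Tlr4, the lipopolysaccharide receptor, was at 0.72 in WT mice, and Ticam1, which encodes its adaptor TRIF, at 0.55 in WT and 0.39 in MlklAdi-KO mice. The call of Ticam1 was lost in WT mice without mouse 180 (0.49, adjusted p = 0.0503) and held in 9 of 15 alternatives in MlklAdi-KO mice, being lost without mice 166, 197, 199 or 152 in turn (adjusted p up to 0.0771, limma with Benjamini-Hochberg adjustment). Ifnar2, a subunit of the type I interferon receptor, rose by 0.57 and 0.59. Among 18 modulators of MLKL and membrane repair genes, 6 rose and 2 fell in WT visWAT and 10 rose and 1 fell in MlklAdi-KO visWAT (medians 0.17 and 0.22). Axl, a receptor kinase, rose by 1.59 in WT (adjusted p = 4.45e-06) and 0.77 in MlklAdi-KO mice (adjusted p = 0.0152), by limma with Benjamini-Hochberg adjustment. Itpk1, an inositol phosphate kinase, rose by 1.01 in MlklAdi-KO visWAT (adjusted p = 0.00053), and Mertk, a receptor kinase for dying cells, fell there by 0.62 (adjusted p = 0.005), both by limma with Benjamini-Hochberg adjustment. Cdc37, the HSP90 co-chaperone of RIPK3, was at 0.31 in WT and 0.44 in MlklAdi-KO mice, past the threshold in each, but not in WT mice without mouse 180 (0.28, limma, Benjamini-Hochberg adjusted p = 0.0576). Ppm1b, a phosphatase of RIPK3, was at −0.39 in WT mice and at 0.05 on the TPM scale. Of 4 genes of the executioner arm of apoptosis, limma, edgeR and DESeq2 called 0 in visWAT of either genotype. At an unadjusted limma p under 0.05 were 0 in WT and 2 in MlklAdi-KO mice, where 46.9% and 52.4% of all genes were.

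In liver, of 21 genes of the TNF receptor complex 3 rose and 2 fell with HFD in WT mice and 6 rose and 1 fell in MlklAdi-KO mice (medians 0.05 each), where 13.2% of all genes rose and 12.1% fell in WT and 11.9% rose and 10.3% fell in MlklAdi-KO mice. Of 11 other triggers 2 rose and 1 fell in WT and 3 rose and 1 fell in MlklAdi-KO mice (medians 0.06 and 0.19), with Tnfsf10, the ligand TRAIL, at 0.46 and 0.82 (limma, Benjamini-Hochberg adjusted p = 0.0124 and 0.00464) and Ifnar2 at −0.30 and −0.27. Without mice 182 and 183 Tnfsf10 in WT mice was at 0.39 and did not pass (limma, Benjamini-Hochberg adjusted p = 0.0848). The call of Ifnar2 held in 8 of 16 alternatives in WT mice, where it was lost with any mouse but 182 or 162 left out (adjusted p up to 0.11), and in 13 of 15 in MlklAdi-KO mice, where it was lost without mice 197 or 199 (adjusted p up to 0.0585), by limma with Benjamini-Hochberg adjustment. Of 18 modulators 2 rose and 3 fell in WT and 3 rose and 2 fell in MlklAdi-KO mice (medians −0.13 and −0.08), with Mertk at 0.42 and 0.50 and Flot2, a flotillin, at 0.42 and 0.34. Stub1, Peli1 and Chmp3 fell in WT mice (−0.26, −0.25 and −0.14), calls that held in 8, 10 and 6 of 16 alternatives. Flot1, the other flotillin of the list, and Chmp4b fell in MlklAdi-KO mice (−0.41 and −0.19), calls that held in 8 and 5 of 15. In MlklAdi-KO mice Flot2 passed in 9 of 15 alternatives and not without mice 166, 179, 151, 153 or 156 in turn (limma, Benjamini-Hochberg adjusted p up to 0.078). Bid, the caspase-8 substrate that links to mitochondria and a gene of the executioner list, rose in liver by 0.50 in WT and by 0.45 in MlklAdi-KO mice (limma, Benjamini-Hochberg adjusted p = 0.00945 and 0.00688).

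The genes whose pattern was most like that of Mlkl, Ripk3 and Zbp1 were sought by Pearson's r of log2(FPKM + 1) over the 18 visWAT libraries, among 10985 genes with a mean of at least 1 FPKM. The libraries share diet groups, so r is given also for deviations from the group means. Mlkl was most like Btaf1 (r = 0.83), Mrtfb (0.80) and Pml (0.79), with 0.47, 0.33 and 0.58 within groups. Ripk3 was most like Tmem86a (r = 0.97), Plaur (0.97) and Ctsz (0.96), with 0.88, 0.84 and 0.83 within groups. The r of Ripk3 with Mlkl was 0.29 over libraries of both genotypes, of which MlklAdi-KO mice lack Mlkl in adipocytes by design. It was not computed within groups. Zbp1 was most like Lcmt2 (r = 0.92), the interferon-induced Oas1a (0.87) and Gdf3 (0.85), with 0.71, 0.56 and 0.56 within groups. Of the 9 genes themselves, Ripk3 stood closest to Casp8 (0.93), Ripk1 (0.85) and Tradd (0.85), and had r of −0.53 with Cflar and −0.48 with Cyld. Between the 9 genes r was not computed within groups, so these values also hold the diet differences given above.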

How the data were processed

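RNA of visWAT and liver of 18 mice was sequenced by the authors after selection of polyadenylated RNA. Reads were trimmed with fastp, mapped to mm39 (GRCm39) with HISAT2 and counted with featureCounts (1.5.0-p3 in the submitters' processing notes); strand setting and annotation release are not given in the sources used here. The authors deposited FPKM of 56748 genes for all 36 libraries, and reads as counts for the genes listed in their comparison tables. Their tables also hold fold changes and p-values, which were not used, nor were 72 further columns of values. Groups and mouse numbers came from the sample labels.

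FPKM were turned back into reads, of which 100% were whole within a tolerance of 0.01. The main test was limma (3.58.1, R 4.3.3) on log2(FPKM + 1), moderated by eBayes with a mean trend, over genes with a mean of at least 0.5 FPKM in the libraries compared, with Benjamini-Hochberg adjustment and a threshold of 0.05. It used the groups of each comparison, and for interactions all groups concerned. Differences on this scale understate changes of genes with low values. Single genes were also compared with two-sided exact permutation tests, whose smallest p is 0.0159 for 4 against 5 mice. Alternatives were a pseudocount of 0.1, no filter, the TPM scale, edgeR (4.0.16) and DESeq2 (1.42.0) on the recovered reads, all 4 groups of a tissue in 1 fit, the mouse as a block between tissues, and leaving out each mouse. The fits were tested on simulated data. Tissues of 1 mouse were paired by the animal only in the block alternative. The correlation of their deviations from the group means was −0.0659 to 0.237, over 0.1 in 3 of 18 mice. Replicate libraries differed by more than sampling noise, with a chi-square per gene of 9.82 or more.

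The 9 genes, the pathway and marker lists and the rules for naming genes were chosen with earlier results of these data known. At most 3 genes called in each direction could be named per list and diet comparison, those with the largest differences, and some of these are left out here. For Mlkl, Ripk3 and Zbp1 the 3 most similar genes were named. Promoters came from RefSeq and shared exonic bases from GENCODE, both on GRCm39; gene coordinates are those of the deposited table. Some liver results of the list for the executioner arm of apoptosis are not reported here.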

Additional observations from a re-analysis of the deposited data

Results flagged for a closer look

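Between tissues, the HFD difference of WT mice differed for 4 of the 9 genes (interaction, limma with Benjamini-Hochberg adjustment), at 1.06 for Ripk3, 0.55 for Tradd, 0.32 for Ripk1 and −0.33 for Fadd, in visWAT minus liver on the log2(FPKM + 1) scale. The call of Fadd was lost with the mouse as a block. Ripk3 was below the filter in WT liver alone and passed it here through its visWAT values.

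A single mouse stood far from the rest of its group in 4 of 72 groups of a gene, tissue, genotype and diet, about the 1 in 20 that chance gives. These were Mlkl in liver of HFD-fed WT mouse 162 (2.99 FPKM) and of HFD-fed MlklAdi-KO mouse 152 (3.46 FPKM), Tradd in visWAT of NCD-fed WT mouse 183 (7.38 FPKM) and Cyld in liver of the library labelled WT NCD mouse 182 (2.19 FPKM). In mouse 152, Ripk3 in liver was also the highest of its group, at 0.977 FPKM, as were the summed macrophage markers, at 118 FPKM, and Kupffer cell markers, at 84.4 FPKM.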

How the results depend on the processing

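Of 241 numbers of necroptosis genes called under an alternative, 233 stayed within 1.5 times the reported number. HFD in MlklAdi-KO liver gave 2 genes without the filter in place of 4, and 2 to 4 with 1 mouse left out (2 without mice 166 or 156). The interaction of tissue with diet gave 2 genes without mice 182 and 183 in place of 4, and 3 to 4 with 1 mouse left out. The interaction of tissue with genotype on HFD gave 1 gene on the TPM scale and 1 by DESeq2 in place of 0, and 0 to 1 with 1 mouse left out (1 without mice 152 or 153). With the mouse as a replicate block (pairing by animal) Fadd lost its interaction of tissue with diet (adjusted p = 0.0913), which left 3 genes; no other call changed.

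Among 1562 values of single genes, 204 changed sides of the threshold and 10 changed sign. On the TPM scale, Ripk1 (0.0459) and Tradd (0.17) between tissues on NCD, Ripk1 (0.75), Cflar (0.17) and Cyld (0.60) on HFD, Fadd for tissue by diet (0.0399), and Chuk (0.0127) and Ppm1b (0.0508) for diet in WT visWAT changed sign. Without mice 182 and 183, an alternative chosen after the data were seen, Mlkl changed sign between genotypes in NCD-fed liver (0.0624) and for genotype by diet in visWAT (0.0560). The TPM scale sets the sums of all libraries equal, and visWAT of WT NCD mouse 183 had the highest sum before it, at 564718 FPKM. The cause of these changes of sign was not tested.

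Counts over all genes moved more. Between genotypes in HFD-fed visWAT, 3 genes became 161 by DESeq2, 9 with all 4 groups and 5 on the TPM scale; in NCD-fed visWAT 0 became 8 by DESeq2, 3 without mice 182 and 183, 2 without the filter and 1 with all 4 groups; in HFD-fed liver 26 became 262 by DESeq2 and 7 without the filter; in NCD-fed liver 1 became 21 by DESeq2, 7 without mice 182 and 183 and 3 without the filter or with all 4 groups. Genotype by diet went from 0 to 21 in visWAT and from 2 to 63 in liver by DESeq2, and to 1 in liver by edgeR or without mice 182 and 183. Tissue by genotype on HFD went from 19 to 336 by DESeq2, 7 with the block, 4 by edgeR and 3 with a pseudocount of 0.1; on NCD from 0 to 7 without the filter and 1 without mice 182 and 183. The TPM scale turned 3108 higher and 2239 lower into 4113 and 233 for diet in WT visWAT, 4580 and 4947 into 5870 and 2046 between tissues on NCD, 6101 and 6313 into 11215 and 2738 on HFD, and 3214 and 2687 into 4387 and 624 for tissue by diet. At 7 to 43 reads, Ripk3 could not be compared within liver.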
